A study of Bos taurus with 37 samples.

Results

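The Hippo-YAP genes described here are YAP1, WWTR1, LATS1, LATS2, NF2, TEAD1, TEAD2, TEAD3, CTGF and CYR61, measured in single bovine blastocysts and in the fibroblasts that gave the nuclei for cloning. They were chosen by name as 10 genes of the 22628 rows of an expression table. Of the 10 symbols, 9 were row names and matched 10 rows, because LATS1 had a pair of rows. YAP1 was found by its gene ID as the row LOC100336629, the symbol that the RefSeq annotation of ARS-UCD2.0 links to YAP1. The second LATS1 row was listed at 0 in all 37 libraries and was not tested, so 10 rows entered the tests.

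The blastocysts were made by somatic-cell nuclear transfer (SCNT-BLs, 6 male and 6 female), by sham nuclear transfer (sham NT-BLs, 6 male and 5 female) or by in-vitro fertilization (IVF-BLs, 6 male and 6 female), and there was 1 library each from the male and the female donor cells. In SCNT, a single adult ear skin fibroblast was fused with an enucleated oocyte, which was then activated. The male and the female donor cells differ in sex, and how many animals gave them was not given in the sources used here. SCNT-BLs of a sex carry the nuclear genome of that sex's donor cells, while sham NT-BLs and IVF-BLs came from fertilization. Nuclear transfer and donor genotype therefore cannot be told apart where SCNT-BLs are compared with them. Sham NT-BLs were fertilized zygotes from which the polar body and some ooplasm had been taken and which were then activated chemically, so the effects of removal and activation cannot be told apart. All blastocysts were picked within a window of blastomere number and of high quality, and their strain and parents were not given in the sources used here.

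The Hippo pathway is a kinase cascade that reads cell contacts, polarity and tension. The kinases LATS1 and LATS2, which the junction-linked scaffold NF2 (merlin) helps to activate, phosphorylate the coactivators YAP1 and TAZ, the protein of WWTR1, and keep them out of the nucleus. Where the kinases are silent, YAP1 and TAZ enter the nucleus and bind TEAD transcription factors, and CTGF and CYR61 are among the best known genes they turn on. In the mouse blastocyst, this switch separates the outer trophectoderm, where nuclear YAP1 with TEAD4 drives CDX2 and GATA3, from the inner cell mass, where the kinases are active. Transcript levels do not report phosphorylation or place in the cell, so the values below describe the abundance of pathway transcripts and not the activity of the pathway.

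Values are FPKM, fragment counts scaled to transcript length and to library size. The summed FPKM of a library lay between 414105 and 601000, and the number of rows above 0.1 FPKM lay between 12070 and 14030 in the blastocysts. Libraries of the same group correlated with an r between 0.841 and 0.939 across genes. Female SCNT replicates 5 and 6 had the fewest detected rows, 12106 and 12070. In the study's library table most male sham libraries had a lower mapped share than the others and replicate 2 did not, so results of male sham NT-BLs are also given with replicate 2 alone, for the 10 genes and where it ends the call of another named gene, an alternative chosen after seeing the data, as was leaving out female SCNT replicates 5 and 6. Male and female libraries were sequenced in different flow cells, so sex and flow cell cannot be told apart. The trophectoderm keratins KRT8 and KRT18 were listed between 523 and 4233 FPKM in every blastocyst and at no more than 17.1 FPKM in the fibroblasts. Of 9 fibroblast markers, FN1 was abundant in the blastocysts too, COL1A2 and THY1 reached 33.5 and 15.2 FPKM in a blastocyst, and the other 6 stayed at no more than 3.92 FPKM. A blastocyst library mixes all its cells, so fewer cells of a type and less RNA per cell cannot be told apart.

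Each sex was compared separately with limma on log2(FPKM + 1), for genes with a mean over 0.1 FPKM, and a gene was called where its adjusted p, by the Benjamini-Hochberg method over all genes tested, was under 0.05. In sham NT-BLs against IVF-BLs, 2 of the 10 genes were called in males, both lower, where 5.96% of all genes were called lower and 6.13% higher. In females, 4 were called, 3 lower and 1 higher, where 6.47% of all genes were called lower and 7.03% higher. In SCNT-BLs against sham NT-BLs, 4 genes were called higher and 0 lower in males, where 5.67% of all genes were called higher and 6.13% lower. In females, 2 were called higher and 0 lower, where 5.21% of all genes were called higher and 6.07% lower. In SCNT-BLs against IVF-BLs, limma called 1 gene in males, lower, where 3.64% of all genes were called lower and 3.34% higher. It called 0 genes in females, where 0.111% of all genes were called lower and 0.21% higher. At an unadjusted p under 0.05 the members numbered 5 in each sex for sham against IVF, 5 in males and 3 in females for SCNT against sham, and 2 in males and 1 in females for SCNT against IVF. The 3 comparisons share embryos in pairs and are not independent of each other.

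The median log2 fold change of the 10 genes was -0.39 in males and -0.36 in females for sham against IVF, where the median of all genes was -0.02 and -0.09. For SCNT against sham it was 0.29 in males and 0.22 in females, beside 0.01 and 0.04 for all genes. For SCNT against IVF it was -0.02 in males and 0.11 in females, beside -0.01 and -0.04 for all genes.

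**Figure D1:**
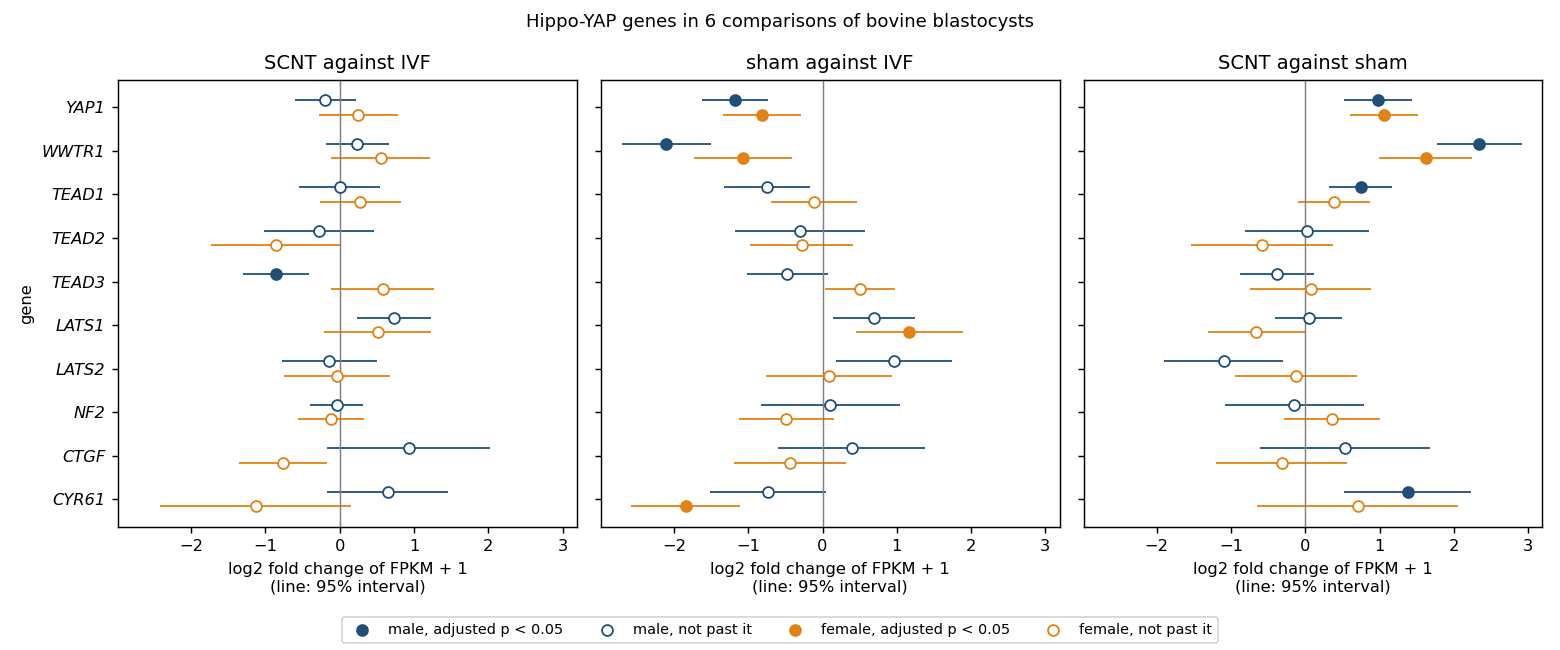
Log2 fold changes of the 10 genes (horizontal axis, on the log2(FPKM + 1) scale, with 95% intervals from limma) in each of the 3 comparisons, with male and female results in different colours and filled points where the adjusted p was under 0.05. YAP1 and WWTR1 are filled in both sexes for sham against IVF, to the left of 0, and for SCNT against sham, to the right of 0.

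YAP1 and WWTR1, the coactivators of the pathway, were lower in sham NT-BLs than in IVF-BLs and higher in SCNT-BLs than in sham NT-BLs, in both sexes. YAP1 was among the more abundant transcripts of the blastocyst: by its mean FPKM it ranked 216 of the 22628 rows in male SCNT-BLs, 569 in male sham NT-BLs and 190 in male IVF-BLs, and 179, 518 and 204 in the female groups in the same order. WWTR1 ranked 137, 1045 and 177 in the male and 219, 971 and 330 in the female SCNT, sham and IVF groups.

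In males, YAP1 was listed at 219 to 393 FPKM in the 6 SCNT-BLs, with a median of 302 FPKM. It was at 109 to 205 FPKM in the 6 sham NT-BLs, with a median of 157 FPKM, and at 254 to 471 FPKM in the 6 IVF-BLs, with a median of 338 FPKM. Every male sham NT-BL lay below every male SCNT-BL and every male IVF-BL, while SCNT-BLs and IVF-BLs overlapped. Male SCNT-BLs averaged 303 ± 74.7 FPKM and male sham NT-BLs 153 ± 34.9 FPKM (SD, n = 6 each), a ratio of 1.98, and the log2 fold change was 0.98 ± 0.22 (SE; adjusted p = 0.00736). Against the male IVF-BLs, which averaged 346 ± 78.8 FPKM (SD, n = 6), the same sham NT-BLs had a ratio of 0.441 and a log2 fold change of -1.18 ± 0.21 (SE; adjusted p = 0.00157).

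In females, YAP1 was listed at 287 to 465 FPKM in the 6 SCNT-BLs, with a median of 308 FPKM. The 5 sham NT-BLs held 201, 154, 138, 182 and 147 FPKM, and the 6 IVF-BLs ranged between 172 and 427 FPKM with a median of 311 FPKM. All 5 female sham NT-BLs lay below all female SCNT-BLs, and the female sham and IVF groups overlapped through a single IVF-BL, replicate 6, at 172 FPKM. Female SCNT-BLs averaged 347 ± 74.4 FPKM (SD, n = 6) and female sham NT-BLs 164 ± 26.4 FPKM (SD, n = 5), a ratio of 2.11, and the log2 fold change was 1.06 ± 0.21 (SE; adjusted p = 0.00512). Female IVF-BLs averaged 301 ± 98.1 FPKM (SD, n = 6), and sham against IVF gave a ratio of 0.546 and a log2 fold change of -0.81 ± 0.25 (SE; adjusted p = 0.0405).

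WWTR1 encodes TAZ, the close relative of YAP1, and spread further between the groups. In males it was listed at 313 to 525 FPKM in SCNT-BLs (median 414), at 44.0 to 134 FPKM in sham NT-BLs (median 95.3) and at 273 to 609 FPKM in IVF-BLs (median 332). Again all male sham NT-BLs lay below all other male blastocysts, and SCNT-BLs overlapped with IVF-BLs. Male SCNT-BLs averaged 425 ± 82.9 FPKM and male sham NT-BLs 88.5 ± 35.4 FPKM (SD, n = 6 each), a ratio of 4.80, with a log2 fold change of 2.34 ± 0.27 (SE; adjusted p = 7.42e-05). The male IVF-BLs averaged 369 ± 123 FPKM (SD, n = 6), and sham against IVF gave a ratio of 0.240 and a log2 fold change of -2.10 ± 0.28 (SE; adjusted p = 1.99e-04).

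In females, WWTR1 was listed at 180 to 461 FPKM in SCNT-BLs, with a median of 229 FPKM, at 102, 64.0, 113, 119 and 58.2 FPKM in the sham NT-BLs, and at 104 to 355 FPKM in IVF-BLs, with a median of 173 FPKM. No female sham NT-BL reached the lowest SCNT-BL, whereas the sham and IVF groups overlapped between 104 and 119 FPKM. The log2 fold change was 1.62 ± 0.29 for SCNT against sham (SE; adjusted p = 0.00261; ratio of means 3.17) and -1.07 ± 0.31 for sham against IVF (SE; adjusted p = 0.0314; ratio of means 0.455). The pair of female SCNT-BLs with the highest WWTR1, replicates 5 and 6 at 414 and 461 FPKM, also had the highest YAP1 of the group, at 415 and 465 FPKM, and the fewest detected rows. Without this pair, SCNT against sham in females gave 1.28 for WWTR1 (adjusted p = 0.00480) and 0.88 for YAP1 (adjusted p = 0.00748) on the log2 scale.

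**Figure D2:**
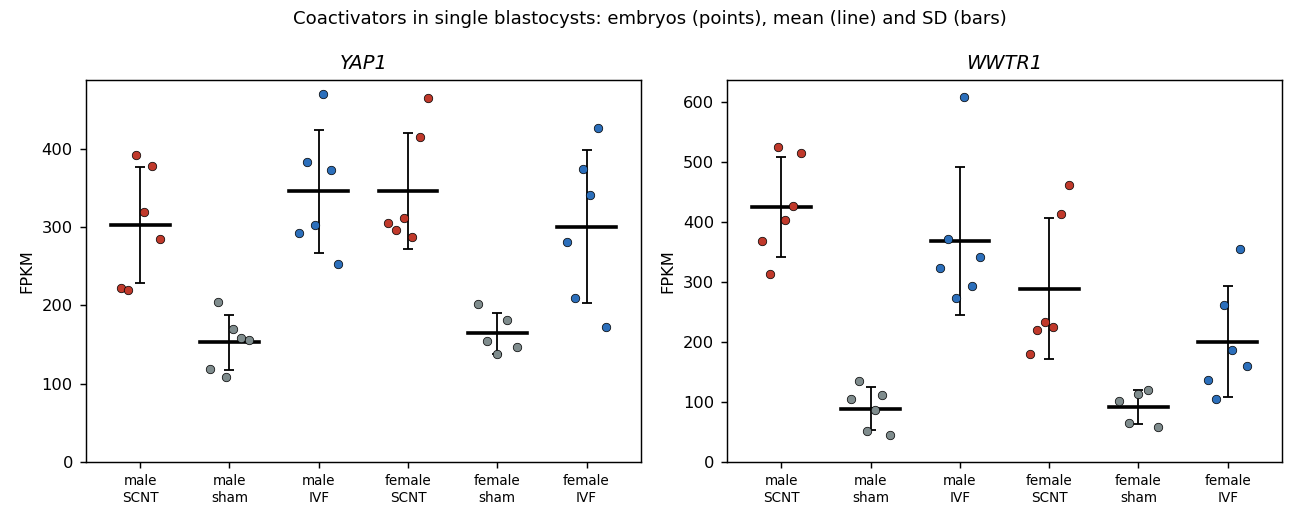
FPKM of YAP1 (left) and WWTR1 (right) on the vertical axis in each blastocyst, by group on the horizontal axis. Points are embryos, lines are group means and bars are SDs, and the male sham NT-BLs lie between 109 and 205 FPKM for YAP1 and between 44.0 and 134 FPKM for WWTR1, under all other male blastocysts.

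The calls of both coactivators in male sham against IVF, and in SCNT against sham in either sex, were kept when any single embryo was left out. With male sham replicate 2 as the only male sham embryo, whose 205 FPKM of YAP1 and 134 FPKM of WWTR1 were still below every male IVF-BL, the log2 fold changes against IVF were -0.72 (adjusted p = 0.290) and -1.40 (adjusted p = 0.0955), and those of SCNT against sham were 0.53 for YAP1 (adjusted p = 0.515) and 1.64 for WWTR1 (adjusted p = 0.0297). In that fit the lone embryo is assumed to vary like the other group. The female sham against IVF calls were less firm. That of YAP1 was lost without any of female sham replicates 2, 3, 4 and 5 or female IVF replicates 1, 3, 4 and 5, with adjusted p-values up to 0.0995. That of WWTR1 was lost without female sham replicate 2 or 5 or female IVF replicate 3, 4 or 5, with adjusted p-values up to 0.0830. Both were also lost with each library centred on its median (adjusted p = 0.0716 for YAP1 and 0.0534 for WWTR1) and with no filter on low values (0.0584 and 0.0580).

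Some markers of the inner cell mass and of the primitive endoderm were called in some of the same comparisons as the coactivators, and others were not. The summed FPKM of SOX2, NANOG, POU5F1 and LIN28B was 54.5 to 121 (median 88.1) in male SCNT-BLs, 16.7 to 66.9 (median 42.7) in male sham NT-BLs and 58.6 to 92.1 (median 80.0) in male IVF-BLs. Female SCNT-BLs had sums of 42.0 to 103 (median 76.6), sham NT-BLs of 35.1 to 67.4 (median 39.6) and IVF-BLs of 69.7 to 171 (median 101), so the sham groups had the lowest medians and, apart from the female sham and IVF groups, overlapped with the others. For sham against IVF, SOX2, NANOG and LIN28B gave log2 fold changes of -0.58, -0.82 and 1.34 in males and 0.01, -0.13 and -0.19 in females, without a call. POU5F1 alone of the 4 genes was called in either sex for sham against IVF, with log2 fold changes of -1.69 in males (adjusted p = 7.19e-04) and -1.97 in females (adjusted p = 0.00112). It was called higher for SCNT against sham in males (1.82, adjusted p = 4.49e-04) and in females (1.40, adjusted p = 0.00744). The male values with sham replicate 2 alone were -2.48 and 2.61, and both calls were kept.

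The summed FPKM of the 4 primitive endoderm markers GATA6, SOX17, PDGFRA and GATA4 had medians of 269, 142 and 189.6 in male SCNT-BLs, sham NT-BLs and IVF-BLs and of 208, 130.4 and 216 in the female groups in that order. For sham against IVF, GATA4 fell in males (-1.22, adjusted p = 0.0158), at low means of 0.507 and 2.41 FPKM, and GATA6 fell in females (-0.95, adjusted p = 0.0180). The other markers tested were not called. They were GATA6 (-0.36), SOX17 (-0.26) and PDGFRA (-0.41) in males, and PDGFRA (0.72) and GATA4 (-0.24) in females. For SCNT against sham, GATA6 was called higher in males (1.21, adjusted p = 0.00189) and in females (0.82, adjusted p = 0.0295), and it was also higher in male SCNT-BLs than in IVF-BLs (0.85, adjusted p = 0.00737). With male sham replicate 2 alone the male sham calls of GATA4 (-0.46, adjusted p = 0.774) and GATA6 (1.50, adjusted p = 0.0603) were lost.

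The summed FPKM of the 8 trophectoderm markers had medians of 7107, 5960 and 5837 in male SCNT-BLs, sham NT-BLs and IVF-BLs and of 4667, 4250 and 6784 in the female groups in that order. Of these 8, TFAP2C fell in male sham NT-BLs against IVF-BLs, by 1.11 on the log2 scale (adjusted p = 0.00583), and was higher in male SCNT-BLs than in sham NT-BLs (0.77, adjusted p = 0.0307). Both calls were lost with sham replicate 2 alone, though the fold changes, -1.67 and 1.33, were larger in size. CDX2 was also called higher for SCNT against sham in males, and for SCNT against IVF in males GATA3 was called higher and GATA2 lower (-1.40, adjusted p = 0.0225). In females limma called 0 of the 8 in any comparison, with 1 under an unadjusted p of 0.05 for SCNT against IVF, 2 for sham against IVF and 1 for SCNT against sham. Of the fibroblast markers, COL1A1 (-0.72, adjusted p = 0.0458) and COL1A2 (-1.53, adjusted p = 0.0479) were lower in male SCNT-BLs than in sham NT-BLs and THY1 (1.36, adjusted p = 0.0441) was higher in female SCNT-BLs than in sham NT-BLs, and each of these calls was lost in 8 or more fits with 1 embryo left out. The part of cell composition in the coactivator results was not tested.

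The balance between the coactivators had different medians in the groups, which was not tested. Within each embryo, the ratio of WWTR1 to YAP1 in FPKM was 1.13 to 1.81 in male SCNT-BLs (median 1.38), 0.283 to 0.872 in male sham NT-BLs (median 0.583) and 0.788 to 1.34 in male IVF-BLs (median 1.04). The male IVF-BLs overlapped with the male SCNT-BLs and with the male sham NT-BLs. The medians of the female groups were 0.765 (SCNT), 0.505 (sham) and 0.622 (IVF), and their ranges overlapped. WWTR1 exceeded YAP1 in every male SCNT-BL and in no sham NT-BL of either sex.

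The TEAD proteins carry the coactivators to DNA. TEAD3 was the only member called between SCNT-BLs and IVF-BLs. In males it was listed at 51.1 to 86.1 FPKM in SCNT-BLs, with a median of 63.7 FPKM, and at 91.4 to 196 FPKM in IVF-BLs, with a median of 116 FPKM. All male SCNT-BLs lay below all male IVF-BLs. The male SCNT-BLs averaged 67.5 ± 14.4 FPKM and the male IVF-BLs 126 ± 41.7 FPKM (SD, n = 6 each), a ratio of 0.535, and the log2 fold change was -0.86 ± 0.21 (SE; 95% interval -1.30 to -0.41; adjusted p = 0.0217). The adjusted p was 0.0505 without male SCNT replicate 1, 0.0525 without male SCNT replicate 5 and 0.0502 without male IVF replicate 2, and it was 0.0727 in a single fit over the 35 blastocysts.

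Female TEAD3 did not follow that order. Female SCNT-BLs held 63.6 to 320 FPKM (median 81.9), the 5 sham NT-BLs 136, 96.8, 130, 109 and 57.4 FPKM, and the IVF-BLs 67.9 to 78.4 FPKM (median 71.0), the tightest group of the gene, with a coefficient of variation of 5.44%. The groups overlapped, and the highest values, 158 and 320 FPKM, belonged to SCNT replicates 5 and 6. Sham against IVF in females gave a log2 fold change of 0.51 that was not called (adjusted p = 0.150), and that passed without female sham replicate 5 (adjusted p = 0.0177). The female minus male difference of the SCNT against IVF fold change was 1.44 on the log2 scale (adjusted p = 0.0639), and 0.91 (adjusted p = 0.0998) without female SCNT replicates 5 and 6. It passed without female SCNT replicate 1 or 2 or with a filter on a mean over 1 FPKM (lowest adjusted p = 0.0387).

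TEAD1 was listed at 29.7 to 47.9 FPKM in male SCNT-BLs (median 35.9), 16.7 to 27.5 FPKM in male sham NT-BLs (median 22.0) and 20.1 to 62.1 FPKM in male IVF-BLs (median 41.7). All male SCNT-BLs lay above all male sham NT-BLs, and the log2 fold change was 0.75 ± 0.20 (SE; adjusted p = 0.0222). The call was lost without male SCNT replicate 1 or 2 (adjusted p = 0.0555 and 0.0549) and with male sham replicate 2 alone (0.67; adjusted p = 0.281). Sham against IVF gave -0.75 in males and was not called (adjusted p = 0.0903), though it was without male IVF replicate 6 (adjusted p = 0.0330) and in a single fit over the 35 blastocysts. In females TEAD1 was at 29.1 to 50.4 FPKM in SCNT-BLs (median 34.0), at 30.3, 33.1, 26.5, 19.3 and 26.6 FPKM in sham NT-BLs and at 15.5 to 38.9 FPKM in IVF-BLs (median 35.3), and the 3 groups overlapped.

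TEAD2, known in the mouse as the TEAD gene expressed from the earliest cleavage stages, was the scarcest. It was listed at 1.53 to 4.63 FPKM in male SCNT-BLs (median 2.81), 0.730 to 5.25 FPKM in male sham NT-BLs (median 3.26) and 1.15 to 4.99 FPKM in male IVF-BLs (median 4.09). Female SCNT-BLs held 0.453 to 5.77 FPKM (median 2.40), with the lowest values, 0.453 and 0.545 FPKM, in replicates 5 and 6, against 2.80, 2.22, 4.85, 3.74 and 5.18 FPKM in sham NT-BLs and 3.17 to 7.88 FPKM in IVF-BLs (median 4.45). The groups overlapped in every comparison and no comparison passed an unadjusted p of 0.05.

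TEAD4, the TEAD gene that the mouse trophectoderm requires, belongs to the wider list of pathway genes and completes the family. In males it was listed at 15.7 to 41.9 FPKM in SCNT-BLs (median 26.1), 29.0 to 55.6 FPKM in sham NT-BLs (median 39.0) and 42.2 to 72.4 FPKM in IVF-BLs (median 51.7), and every SCNT-BL lay below every IVF-BL (log2 fold change -1.04, adjusted p = 0.0143). In females it was at 53.8 to 191 FPKM in SCNT-BLs (median 69.5), 11.3 to 53.9 FPKM in sham NT-BLs (median 36.9) and 52.5 to 91.1 FPKM in IVF-BLs (median 77.5). TEAD4 fell in female sham NT-BLs against IVF-BLs, by 1.27 on the log2 scale (adjusted p = 0.0207, and 0.0590 without female sham replicate 4), and was higher in female SCNT-BLs than in sham NT-BLs (1.35, adjusted p = 0.0411). Of the 11 fits with 1 embryo left out, 7 lost that last call (adjusted p up to 0.105), as did the fit without female SCNT replicates 5 and 6 (1.01, adjusted p = 0.113).

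By length-scaled FPKM, TEAD3 made up the largest share of the summed TEAD1, TEAD2, TEAD3 and TEAD4 in 5 of the 6 groups by median, with 50.7%, 57.9% and 55.6% in male SCNT-BLs, sham NT-BLs and IVF-BLs and 43.6%, 65.5% and 39.1% in the female groups in that order. TEAD4 made up 20.5%, 24.1% and 25.6% in males and 33.4%, 18.7% and 41.3% in females, and in female IVF-BLs its median share was above that of TEAD3. TEAD1 held between 13.9% and 29.4%, with its largest median share in male SCNT-BLs.

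**Figure D3:**
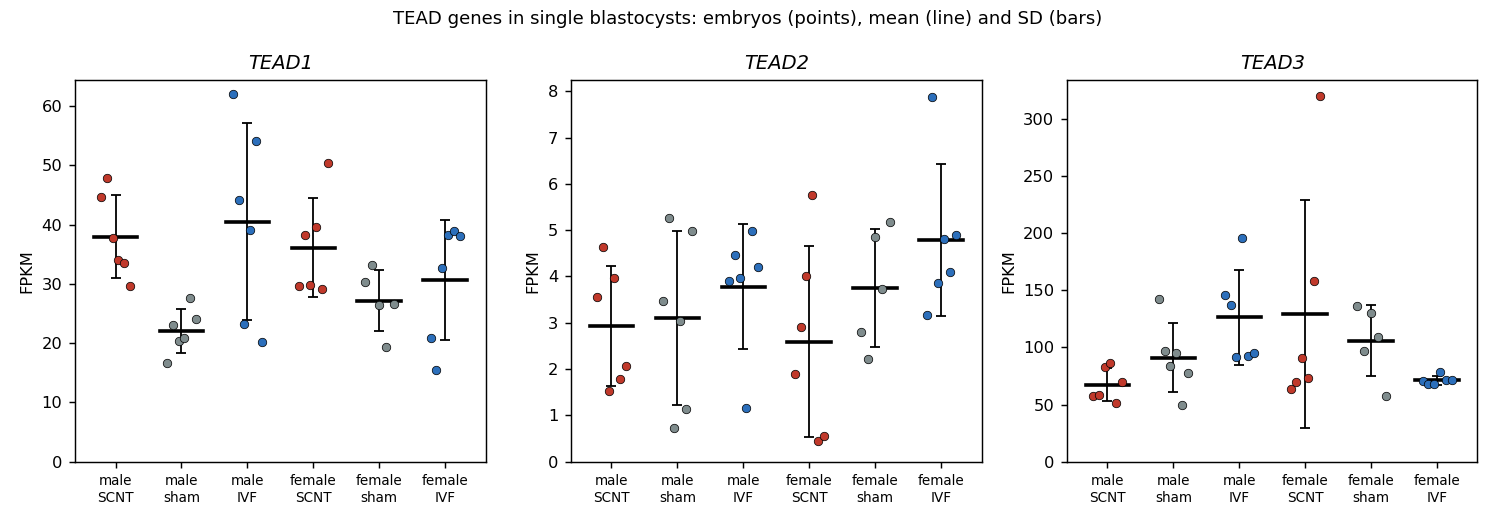
FPKM of TEAD1, TEAD2 and TEAD3 (1 panel each, vertical axis) in each blastocyst by group (horizontal axis), with points for embryos, lines for means and bars for SDs. For TEAD3 the male SCNT-BLs (51.1 to 86.1 FPKM) sit below the male IVF-BLs (91.4 to 196 FPKM), while the female SCNT-BLs reach 320 FPKM.

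LATS1, LATS2 and NF2 stand above the coactivators and restrain them. LATS1 was higher in female sham NT-BLs than in female IVF-BLs. Female SCNT-BLs held 9.50 to 27.0 FPKM (median 12.4), the sham NT-BLs 21.8, 24.1, 21.9, 32.5 and 12.9 FPKM and the IVF-BLs 4.33 to 16.5 FPKM (median 10.7). The SCNT-BLs overlapped with both groups. Of the 5 sham NT-BLs, 4 lay above all IVF-BLs and replicate 5 lay within their range. Sham against IVF gave a log2 fold change of 1.17 ± 0.34 (SE; adjusted p = 0.0318), and the call was lost without any of female sham replicates 1, 2, 3 and 4 or female IVF replicates 1, 2 and 3 (adjusted p up to 0.0910). SCNT against sham gave -0.66 and was not called (adjusted p = 0.190), but was called without female SCNT replicates 5 and 6 (-0.91, adjusted p = 0.0495), where replicate 6 alone held the 27.0 FPKM.

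In males, LATS1 was listed at 20.6 to 33.2 FPKM in SCNT-BLs (median 24.6), 17.7 to 31.9 FPKM in sham NT-BLs (median 24.4) and 10.7 to 26.6 FPKM in IVF-BLs (median 13.1). The log2 fold changes were 0.73 for SCNT against IVF (adjusted p = 0.0726) and 0.69 for sham against IVF (adjusted p = 0.0998), and neither was called. The overlap came mostly from male IVF replicate 4 at 26.6 FPKM, and without it both were called (adjusted p = 0.0207 and 0.0341). The same embryo also had the highest YAP1, WWTR1 and TEAD3 of the male IVF group, at 471, 609 and 196 FPKM.

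LATS2 was scarce next to LATS1 in the blastocyst. In males it was listed at 0.501 to 2.76 FPKM in SCNT-BLs (median 0.906), 1.35 to 6.74 FPKM in sham NT-BLs (median 3.21) and 0.647 to 1.88 FPKM in IVF-BLs (median 1.44), and the groups overlapped. The log2 fold changes, 0.96 for sham against IVF (adjusted p = 0.103) and -1.10 for SCNT against sham (adjusted p = 0.0699), were not called. Both were called in a single fit over the 35 blastocysts (adjusted p = 0.0442 and 0.0207), and the SCNT against sham value also without male SCNT replicate 1 or male sham replicate 3 (adjusted p = 0.0477 and 0.0356). Female values were 1.02 to 2.89 FPKM in SCNT-BLs (median 2.37), 0.993, 1.58, 5.33, 3.47 and 1.55 FPKM in sham NT-BLs and 0.836 to 3.64 FPKM in IVF-BLs (median 2.15), with no comparison under an unadjusted p of 0.05.

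NF2 was not called in any comparison. In males its spread differed more than its centre: the SCNT-BLs held 27.8 to 41.8 FPKM (median 31.4), the sham NT-BLs 11.4 to 90.8 FPKM (median 45.4) and the IVF-BLs 28.9 to 43.8 FPKM (median 31.6). The coefficient of variation was 72.0% in male sham NT-BLs and 17.2% in male IVF-BLs, and male sham replicates 1, 3 and 6, at 90.8, 61.2 and 80.6 FPKM, stood above every other male blastocyst while replicates 4 and 5, at 13.5 and 11.4 FPKM, stood below every other. Female SCNT-BLs held 38.8 to 69.1 FPKM (median 62.3), female sham NT-BLs 51.6, 71.9, 72.4, 33.6 and 21.5 FPKM and female IVF-BLs 47.4 to 83.8 FPKM (median 66.3), and the groups overlapped.

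**Figure D4:**
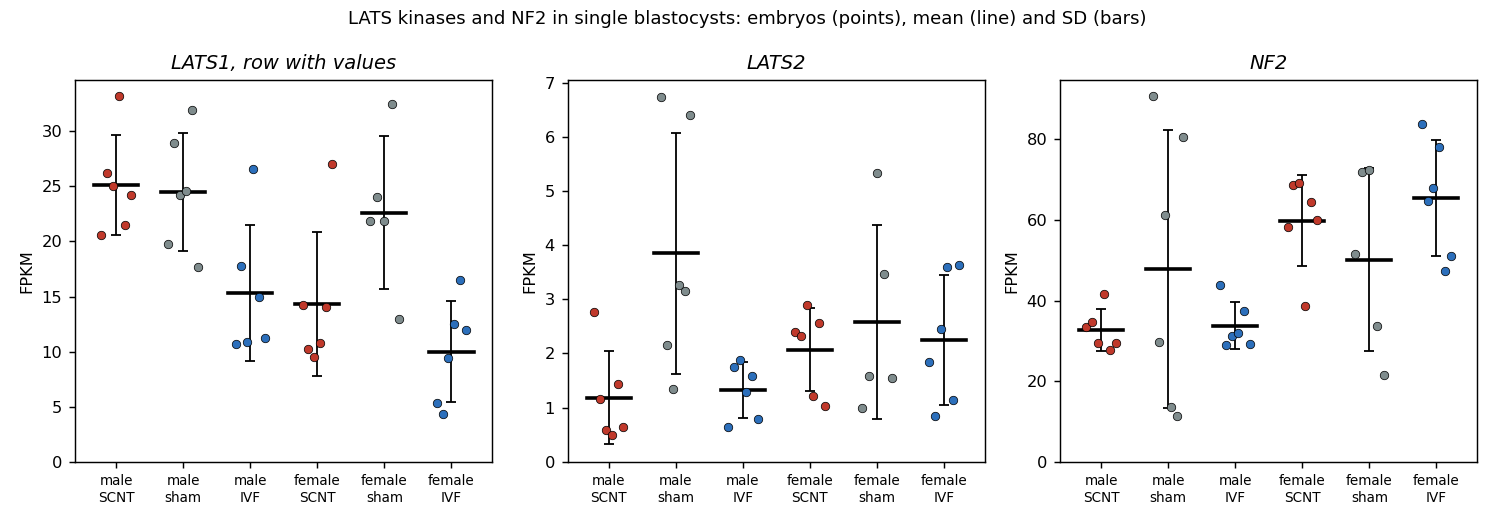
FPKM of LATS1 (the row with values), LATS2 and NF2 (1 panel each, vertical axis) in each blastocyst by group (horizontal axis), with points for embryos, lines for means and bars for SDs. Male sham NT-BLs spread between 11.4 and 90.8 FPKM for NF2, and 4 of the 5 female sham NT-BLs lie above the female IVF-BLs for LATS1.

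CTGF and CYR61 code for secreted matricellular proteins of the CCN family and are the usual readouts of YAP1 and TAZ in cultured cells. CYR61 fell in female sham NT-BLs against IVF-BLs. Female SCNT-BLs spread between 0.677 and 35.2 FPKM (median 17.6), the sham NT-BLs held 7.84, 4.33, 6.99, 5.29 and 11.9 FPKM and the IVF-BLs 10.6 to 48.2 FPKM (median 29.6). The sham and IVF groups overlapped through sham replicate 5 and IVF replicate 6, and the SCNT-BLs, of which replicate 6 held the 0.677 FPKM, overlapped with both. The ratio of the sham mean to the IVF mean was 0.245 and the log2 fold change -1.84 ± 0.35 (SE; adjusted p = 0.00248), and the call was kept under all 17 alternatives.

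In males, CYR61 was listed at 11.8 to 62.7 FPKM in SCNT-BLs (median 29.2), 5.32 to 21.1 FPKM in sham NT-BLs (median 9.42) and 7.46 to 31.7 FPKM in IVF-BLs (median 17.7). It was called higher in SCNT-BLs than in sham NT-BLs, with a log2 fold change of 1.38 ± 0.40 (SE; adjusted p = 0.0346), although the groups overlapped between 11.8 and 21.1 FPKM. The call was lost in 11 of 19 alternatives. The adjusted p rose to as much as 0.0809 without male SCNT replicate 1, 4, 5 or 6 or male sham replicate 1, 3 or 5, and was 0.529 (log2 fold change 1.08) with male sham replicate 2 alone.

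CTGF was not called in any comparison of blastocysts. In males it was listed at 5.18 to 41.4 FPKM in SCNT-BLs (median 28.8), 2.92 to 28.9 FPKM in sham NT-BLs (median 14.7) and 2.79 to 17.5 FPKM in IVF-BLs (median 11.6). Female SCNT-BLs held 8.61 to 35.6 FPKM (median 18.3), female sham NT-BLs 34.0, 41.9, 29.1, 14.4 and 7.87 FPKM and female IVF-BLs 23.6 to 42.2 FPKM (median 29.4). The groups overlapped in every comparison. The female SCNT against IVF log2 fold change was -0.76 ± 0.28 (SE; adjusted p = 0.315), and -0.92 (adjusted p = 0.160) without SCNT replicates 5 and 6. In sham NT-BLs against IVF-BLs, the 2 readouts thus did not share a call in either sex.

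The female minus male difference of each comparison was tested for the 10 genes. Limma called 0 members for SCNT against IVF, sham against IVF or SCNT against sham, where 1.91%, 1.22% and 2.17% of all genes were called in the same order, and 3, 3 and 0 members had an unadjusted p under 0.05. Those for SCNT against IVF were TEAD3, given above, CTGF (-1.69, adjusted p = 0.171) and CYR61 (-1.78, adjusted p = 0.262). Those for sham against IVF were WWTR1 (1.03, adjusted p = 0.318), TEAD3 (0.98, adjusted p = 0.196) and CYR61 (-1.11, adjusted p = 0.392). A call in a single sex is therefore not shown to differ between the sexes.

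The fibroblasts that supplied the nuclei had higher levels of the readouts and lower levels of the coactivators than the SCNT-BLs. With 1 fibroblast library per sex there was no test, and a gene was counted where the library lay outside the 6 SCNT-BLs of its sex and differed from their mean by more than 1 on the log2(FPKM + 1) scale. In males 3 of the 10 genes were higher and 4 lower in the fibroblasts, where 28.3% of all genes were higher and 16.8% lower by this rule. In females 3 were higher and 5 lower, where 29.4% of all genes were higher and 17.1% lower.

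CTGF was listed at 1241 FPKM in the male and 449 FPKM in the female fibroblasts, against at most 41.4 and 35.6 FPKM in the male and female SCNT-BLs. Its ratio to the SCNT mean was 49.0 in males and 23.8 in females, and it ranked 57 and 168 among the rows of the 2 fibroblast libraries. CYR61 was listed at 331 and 193 FPKM in the male and female fibroblasts, with ratios to the SCNT mean of 11.0 and 10.8.

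YAP1 was listed at 43.8 FPKM in the male and 13.8 FPKM in the female fibroblasts, 0.145 and 0.0398 of the SCNT mean. WWTR1 was at 22.3 and 20.6 FPKM, 0.0524 and 0.0714 of the SCNT mean. No SCNT-BL came near these levels, the lowest being 219 FPKM for YAP1 and 180 FPKM for WWTR1. Among the rows of the male and female fibroblast libraries, YAP1 still ranked 2149 and 5087 and WWTR1 3714 and 3875. LATS1 was at 6.56 FPKM in the male and 0.419 FPKM in the female fibroblasts and was lower by the rule in both sexes, with log2 differences of -1.77 and -3.34.

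The other genes met the rule in a single sex. In males these were LATS2, at 8.82 FPKM (log2 difference 2.25), and TEAD1, at 16.6 FPKM (-1.13). In females they were TEAD2, at 6.80 FPKM (1.34), NF2, at 11.9 FPKM (-2.21), and TEAD3, at 42.7 FPKM (-1.31). The values of the same genes in the other sex were 2.70 FPKM for LATS2 and 25.1 FPKM for TEAD1 in female fibroblasts, and 6.35 FPKM for TEAD2, 25.8 FPKM for NF2 and 45.4 FPKM for TEAD3 in male fibroblasts.

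**Figure D5:**
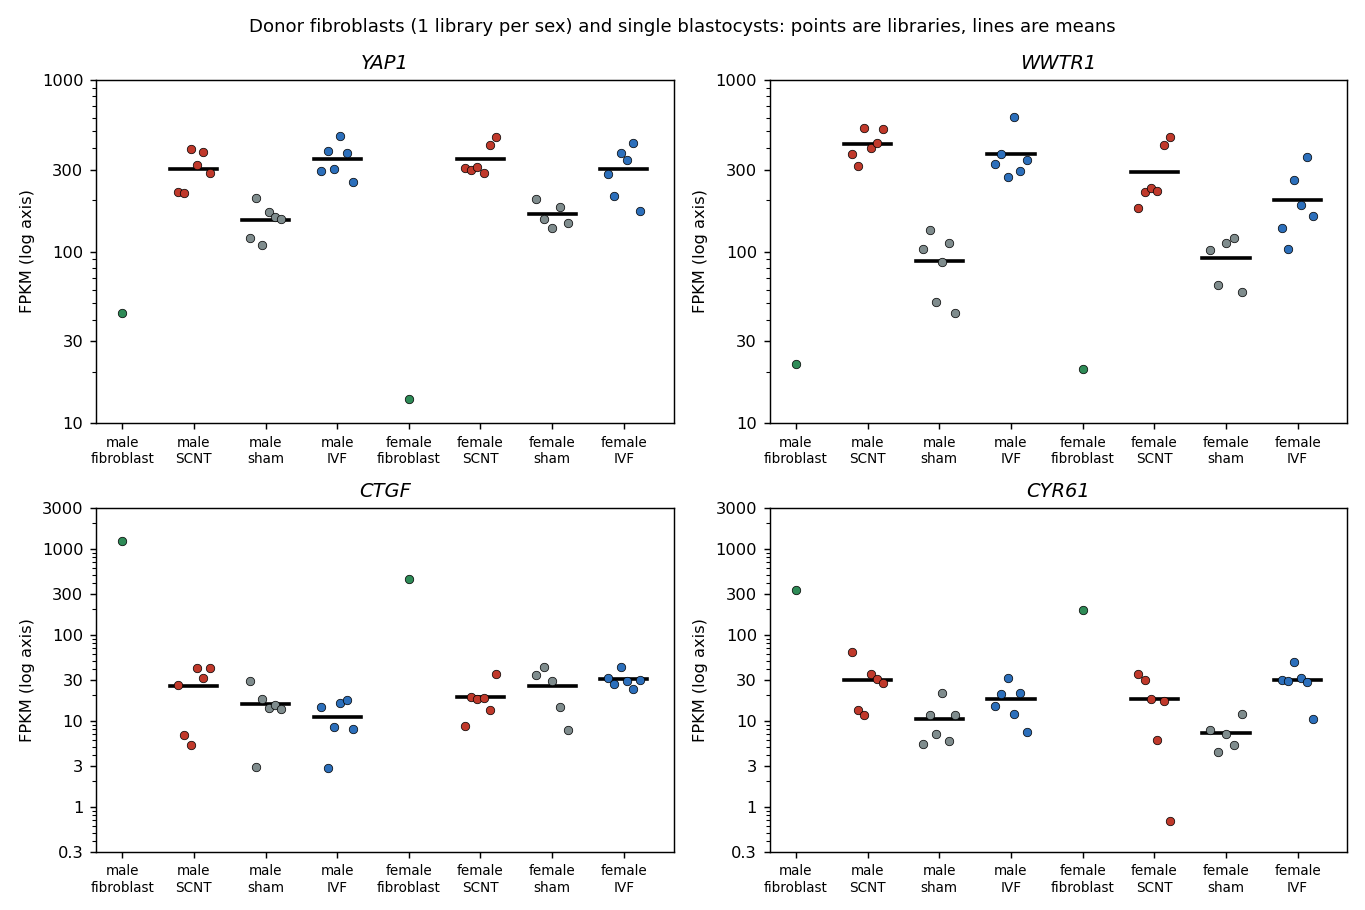
FPKM on a log axis of YAP1, WWTR1, CTGF and CYR61 in the donor fibroblasts (1 library per sex) and, to their right, in the SCNT-BLs, sham NT-BLs and IVF-BLs of the same sex, with points for libraries and lines for means. YAP1 and WWTR1 lie lower in the fibroblasts (13.8 to 43.8 FPKM) than in any SCNT-BL, and CTGF and CYR61 lie higher (193 to 1241 FPKM).

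Most other listed genes that YAP1 and TAZ are known to turn on in human cancer cells had the pattern of the readouts in the fibroblasts. FJX1 and FOXF2, listed at 0 in both fibroblast libraries, did not pass the filter. Of the 21 rows that passed it, of which NT5E had 2, 15 were higher and 0 lower in male fibroblasts than in SCNT-BLs, where 28.3% of all genes were higher and 16.8% lower. In the female, 13 were higher and 1 lower, where 29.4% of all genes were higher and 17.1% lower. THBS1, a matrix glycoprotein, was listed at 5184 and 880 FPKM in male and female fibroblasts, against at most 7.90 and 1.84 FPKM in the SCNT-BLs of those sexes. AXL, a receptor tyrosine kinase, was listed at 222 and 191 FPKM, against at most 0.280 and 1.37 FPKM. Of the rest of the CCN family, NOV (CCN3), at 55.1 and 19.8 FPKM, WISP1 and WISP2 were higher in male and female fibroblasts, and CCN6, at 0 in both fibroblast libraries and at no more than 0.622 FPKM in any blastocyst, did not pass the filter. The trophectoderm markers went the other way, with 7 of 8 lower in the fibroblasts of each sex and 8 of 9 fibroblast markers higher.

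The same targets were then compared among blastocysts. Of 17 rows tested in males and 19 in females, limma called 0 for SCNT against IVF, with 3 in each sex under an unadjusted p of 0.05, and 0 for sham against IVF, with 2 in males and 3 in females under it. Of 18 tested for SCNT against sham in females it called 0, with 1 under an unadjusted p of 0.05. In male SCNT against sham, BIRC5 (survivin, an inhibitor of cell death needed for cell division) was the 1 of 17 called, lower, a share near the 6.13% of all genes called lower. It averaged 28.5 FPKM in male SCNT-BLs and 66.7 FPKM in male sham NT-BLs (n = 6 each), with a log2 fold change of -1.21 (adjusted p = 0.00318), and -1.03 (adjusted p = 0.212) with sham replicate 2 alone. The median log2 fold change of the list was 0.05 in males and -0.32 in females for sham against IVF, and 0.08 and 0.05 for SCNT against sham.

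The lineage genes that TEAD4 and YAP1 drive in the mouse trophectoderm were called once each, in males. CDX2 averaged 43.3 FPKM in male SCNT-BLs, 18.3 FPKM in male sham NT-BLs and 23.4 FPKM in male IVF-BLs, and was higher in SCNT-BLs than in sham NT-BLs (log2 fold change 1.37, adjusted p = 0.0112). With male sham replicate 2 alone the fold change was 0.05 (adjusted p = 0.959). GATA3 averaged 181, 130 and 106 FPKM in the same groups, and was higher in SCNT-BLs than in IVF-BLs (0.80, adjusted p = 0.0306), a call lost in 7 of 12 fits with 1 embryo left out (adjusted p up to 0.0670). In females CDX2 averaged 20.9, 14.1 and 22.1 FPKM and GATA3 189, 134 and 152 FPKM in SCNT-BLs, sham NT-BLs and IVF-BLs, with no call. SOX2, which the pathway allows in the inner cells of the mouse embryo, averaged between 14.8 and 21.9 FPKM over the 6 groups and was not called.

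The kinases and scaffolds that feed LATS1 and LATS2 were represented by 11 genes, and their calls are to be read beside the shares of all genes given above. Limma called 0 for SCNT against IVF in either sex, with 3 in males and 1 in females under an unadjusted p of 0.05. STK3 (MST2), a kinase that activates the LATS kinases, averaged 26.4 FPKM in female sham NT-BLs and 15.2 FPKM in female IVF-BLs, and was the single gene called there, higher (0.75, adjusted p = 0.0261). In male sham NT-BLs against IVF-BLs, the LATS coactivator MOB1B rose (1.53, adjusted p = 0.00934), and the MST-activating kinases TAOK1 (-0.94, adjusted p = 0.00755) and TAOK3 (-0.79, adjusted p = 0.0450) fell.

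The comparison of SCNT-BLs with sham NT-BLs shares these sham embryos. In males TAOK1 averaged 143 FPKM in SCNT-BLs and 54.6 FPKM in sham NT-BLs (1.35, adjusted p = 8.20e-04), TAOK3 was called higher (0.97, adjusted p = 0.0252) and MOB1B lower (-1.21, adjusted p = 0.0221). In females TAOK3 averaged 55.4 FPKM in SCNT-BLs and 18.2 FPKM in sham NT-BLs and was the single call (1.50, adjusted p = 0.00337). The call of TAOK3 in male sham against IVF was lost in 9 of 12 fits with 1 embryo left out (adjusted p up to 0.109). With male sham replicate 2 alone, the male calls of TAOK1, TAOK3 and MOB1B were lost in both comparisons, though the fold changes were larger in size. They were -1.16, -0.94 and 1.77 for sham against IVF and 1.57, 1.12 and -1.46 for SCNT against sham, in that order of genes. STK4 (MST1) averaged between 3.38 and 7.24 FPKM and SAV1, the scaffold of the MST kinases, between 5.45 and 10.2 FPKM over the 6 groups, without a call.

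Of 24 genes of junctions, polarity and upstream regulation, between 0 and 3 were called in a comparison, to be read beside the shares of all genes given above. For SCNT against IVF there was 1 in males, the polarity gene PARD6B, lower (-0.88, adjusted p = 0.0484), and limma called 0 in females, with 1 under an unadjusted p of 0.05. For sham against IVF it called 0 in males, with 4 under an unadjusted p of 0.05, and 2 in females, the polarity gene PARD3 (-1.03, adjusted p = 0.0189) and the LATS activator WWC1 (KIBRA; -0.81, adjusted p = 0.0342), both lower. For SCNT against sham, the polarity kinase gene PRKCI was called higher in males (1.48, adjusted p = 0.0158), the adhesion gene CDH1 (E-cadherin; -1.13, adjusted p = 0.0178) and the polarity gene DLG1 (-0.75, adjusted p = 0.0457) lower, and PARD3 was called higher in females (0.86, adjusted p = 0.0486). CDH1 averaged 652 FPKM in male SCNT-BLs and 1570 ± 803 FPKM in male sham NT-BLs (SD, n = 6). With male sham replicate 2 alone, PRKCI gave 3.23 (adjusted p = 0.0101), CDH1 gave -2.09 (adjusted p = 0.00914) and DLG1 lost its call (-0.90, adjusted p = 0.263). The calls of PARD6B, DLG1, PARD3 in SCNT against sham and WWC1 were each lost in 7 or more of the fits with 1 embryo left out.

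AMOT, an angiomotin that ties junctions to the pathway in the inner cells of the mouse embryo, averaged 57.0, 59.9 and 70.7 FPKM in male SCNT-BLs, sham NT-BLs and IVF-BLs and 201, 148 and 133 FPKM in the female groups in that order, with no call between treatments. The study lists AMOT among the X-linked genes that were higher in female than in male IVF-BLs and SCNT-BLs. VGLL1, which competes with the coactivators for TEAD proteins, averaged between 0.542 and 3.97 FPKM over the blastocyst groups and was listed at 0 in both fibroblast libraries. VGLL3, of the same family, was called lower in male sham NT-BLs than in IVF-BLs (-0.85, adjusted p = 0.0463), at levels of at most 0.119 and 2.11 FPKM. That call was lost in 11 of 12 fits with 1 embryo left out (adjusted p up to 0.0901) and with sham replicate 2 alone (log2 fold change -0.76).

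Finally, the 10 genes were compared across the 35 blastocysts after each group's mean was removed from the log2 values. It is a description, because the genes of an embryo share its library, amplification and depth, and depth was not entered. YAP1 and WWTR1 varied together (Pearson's r = 0.67, Spearman's rho = 0.67; r = 0.66 without the 2 embryos farthest from the median of YAP1), as did WWTR1 and LATS1 (r = 0.69, rho = 0.58). The coactivators did not vary with the readouts in this way. YAP1 had an r of -0.06 with CTGF and 0.02 with CYR61, and WWTR1 had 0.05 and -0.27. CTGF and CYR61 had an r of -0.12 with each other. By Pearson's r the lowest pair was TEAD3 with CYR61 (r = -0.50, rho = -0.31). Without the 2 embryos farthest from the median of TEAD3 its r was -0.21. By Spearman's rho the lowest pair was LATS1 with TEAD2 (rho = -0.41, r = -0.45). Of the 11155 genes with a mean over 1 FPKM, those most like YAP1 were PTPRJ, ZMYND8 and LAMP1 (r = 0.79, 0.78 and 0.78). TEAD3 varied most like TJP1, a tight-junction scaffold (r = 0.83, rho = 0.72; r = 0.71 without the 2 farthest) and NF2 most like ASRGL1 (r = 0.83, rho = 0.85; r = 0.80 without the 2 farthest). For LATS1, LATS2, TEAD1, TEAD2 and CTGF, the nearest gene had an r between 0.60 and 0.76. Each nearest gene was picked as the highest among all these genes, and the r that unrelated genes would reach this way was not tested.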

How the data were processed

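Poly-A RNA of single blastocysts and of donor cells was amplified by pico-profiling and sequenced as paired reads. The authors trimmed reads with Trim Galore, aligned them to UMD 3.1 with TopHat and deposited gene FPKM values from Cufflinks, restricted to known transcripts; tool versions were not given in the sources used here. The expression table holds no counts, so the number of fragments behind each FPKM is not listed there. Sequencing depth was not entered in the fits, and random-primed amplification of small inputs can leave low genes at 0. All 37 columns were matched to samples through their titles, and 803 rows carry a repeated symbol. Fits used limma 3.58.1 in R 4.3.3 (empirical Bayes with trend) on log2(FPKM + 1), which understates changes of low genes. Tests were two-sided. Replicates are separate embryos, and same-numbered embryos of different groups were not paired, with correlations of their deviations between -0.24 and 0.08. A member's fold change is printed where its unadjusted p was under 0.05 or its adjusted p passed, and list genes where their adjusted p passed, besides TEAD4, AMOT, STK3, STK4, SAV1, VGLL1, CDX2, GATA3 and SOX2 by level. Fold changes of the inner cell mass and primitive endoderm markers tested for sham against IVF are printed too. Members and lists were chosen with earlier results of these data known. TAZ here means WWTR1, not tafazzin. Promoter motifs were not analysed here. The genes most like WWTR1 and CYR61 are not reported here. The fits were tested on simulated data.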

Additional observations from a re-analysis of the deposited data

Results flagged for a closer look

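Of the 60 combinations of a gene and a group of embryos, 7 held an embryo that stood apart by Dixon's criterion, and chance sets apart about 1 in 20. The combinations share embryos and are not independent. Female SCNT replicate 6 was far above its group for TEAD3, at 320 FPKM, and for LATS1, at 27.0 FPKM. Male IVF replicate 4 was far above its group for WWTR1, at 609 FPKM, and far below it for TEAD2, at 1.15 FPKM. Female SCNT replicate 4 was low for NF2, at 38.8 FPKM, and among female IVF-BLs replicate 2 was high for TEAD2, at 7.88 FPKM, and replicate 4 for TEAD3, at 78.4 FPKM.

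For a pair of pathway genes outside the 10, the SCNT against sham fold change differed between the sexes by limma's interaction test. The female minus male difference on the log2 scale was 1.98 for TEAD4 (adjusted p = 0.0323) and 1.20 for DLG1 (adjusted p = 0.0380). TEAD4 lost this call in 8 and DLG1 in 15 of 27 alternatives, and sex cannot be told apart from flow cell.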

How the results depend on the processing

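For the values given for the 10 genes, 485 of 546 alternative fits kept the side of the threshold, 48 lost a call, 13 gained 1 and 0 changed direction. Among list genes, 569 of 776 kept the call, 207 lost it and 0 changed direction. The cause of these changes was not tested, and in many of these fits fewer embryos entered.

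With the replicate number as a block, the numbers of genes called were 652 instead of 1040 for SCNT against IVF in males, 20 instead of 49 in females, 1306 instead of 2061 for sham against IVF in females and 1060 instead of 1706 for SCNT against sham in females. Under the block 2 instead of 4 members were called for sham against IVF in females, and 2 instead of 4 for SCNT against sham in males. SCNT against IVF in females also gave 75 genes with a filter over 1 FPKM, 1 with no filter and 131 in a single fit. Members called were 0 instead of 1 for SCNT against IVF in males and 4 instead of 2 for sham against IVF in males in the single fit, 2 instead of 4 for sham against IVF in females with median centring and likewise 2 with no filter, and 1 instead of 0 for the sex difference of SCNT against IVF with a filter over 1 FPKM.

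With male sham replicate 2 alone, 807 instead of 1801 genes and 0 members were called for sham against IVF, and 761 instead of 1744 genes and 1 member for SCNT against sham. Without female SCNT replicates 5 and 6, the sex difference of SCNT against IVF was called for 181 instead of 295 genes.

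Leaving out 1 embryo at a time, the genes called ranged between 1 and 57 for SCNT against IVF in females. For the sex differences they ranged between 147 and 311 for SCNT against IVF, 110 and 238 for sham against IVF and 157 and 363 for SCNT against sham. Members called ranged between 0 and 2 for SCNT against IVF in males, 1 and 4 for sham against IVF in females and 0 and 1 for the sex difference of SCNT against IVF.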
